A study of Mus musculus with 10 samples.

Results

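The genes followed here are 10 imprinted genes that act on growth: Igf2, Igf2r, Peg3, Mest, Dlk1, Cdkn1c, Phlda2, Plagl1, Grb10 and Peg10. They were chosen by name, and each symbol was matched to a single Ensembl identifier among the 22713 genes of the mRNA-sequencing tables. All 10 were found, and all 10 passed the limit of 1 CPM (CPM is the count of reads on a gene scaled to a common library size) in at least 1 library of every comparison. The mRNA was sequenced from mouse embryonic stem (ES) cells in 8 libraries. The ChIP-sequencing covered 2 libraries, and every value below rests on a bulk population, in which fewer cells of a type and less RNA per cell cannot be told apart.

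Pontin f/f; CreER ES cells carry a floxed Pontin gene and a Cre that 4-hydroxy tamoxifen (OHT) activates. They gave 1 library without OHT, called WT although its cells carry the floxed alleles and the CreER too, and 1 library each at 3 days (OHT 3D) and 4 days (OHT 4D) of OHT. ZHBTc4 ES cells, a line in which tetracycline shuts off Oct4, gave 1 library after 2 days of tetracycline (Tc 2D). Lentivirus brought shRNAs into ZHBTc4 cells, and 4 days after infection these gave 2 libraries for a control shRNA, against luciferase, and 2 for one that targets the long non-coding RNA linc1253. The study's culture methods name feeder fibroblasts for some cultures without saying for which of these libraries. Chromatin of ZHBTc4 cells gave 1 library with an antibody against Pontin and 1 with an antibody against GFP as the control.

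Imprinted genes are expressed mostly from a single parental allele, and the choice is set by DNA methylation that the egg or the sperm passes on. Among the genes that act on growth, many of those expressed from the father's allele promote it and many of those expressed from the mother's allele restrain it. In ES cells these marks are known to be unstable in culture, so that the level of an imprinted gene can differ between lines and between cultures of a line. The values here do not separate the alleles.

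The libraries held 17187595 to 37951742 reads on genes. Ruvbl1, the gene of Pontin, had 198 CPM in WT, 33.3 in OHT 3D and 50.9 in OHT 4D. Pou5f1, the gene of Oct4, had 21.1 CPM in Tc 2D and 301 in WT, and between 582 and 708 in the 4 shRNA libraries. Ruvbl1 was at 85.002 CPM in the Tc 2D library and at 166 and 186 CPM in the 2 libraries of the control shRNA. The paper, by quantitative RT-PCR, reports no significant change of Pontin mRNA after Oct4 depletion. The first 4 libraries and the 4 shRNA libraries were normalized by the authors in separate tables, so that every level set across them rests on 2 scales. With 1 library a group, the OHT and Tc comparisons have no replicate check and no p-value. A gene was called there at an absolute difference above 0.58 in log2(CPM + 1), the limit the study states, and intervals (95%, exact) cover the counting of reads only. Ratios that involve the ZHBTc4 control use the reads of its 2 libraries pooled, and log2 differences use the mean of their log2 values. The WT library is shared by the OHT 3D, OHT 4D and Tc 2D comparisons.

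Igf2, a secreted growth factor of the fetus and placenta that is expressed from the father's allele, had the widest range of the 10 genes. Its level was 5.45 CPM in WT, 44.9 in OHT 3D, 69.7 in OHT 4D and 654 in Tc 2D. In the ZHBTc4 lentiviral libraries it was 32.1 and 26.4 CPM with the control shRNA and 26.3 and 25.04 with the linc1253 shRNA. The WT library was thus the lowest of all 8 and the Tc 2D library the highest, and the 4 shRNA libraries lay close together in between. The WT level rests on 122 reads and the Tc 2D level on 18552. Against WT, Igf2 was 8.24-fold higher in OHT 3D (interval 6.82 to 10.03), 12.8-fold in OHT 4D (10.6 to 15.5) and 120-fold in Tc 2D (100.3 to 144). On the log2(CPM + 1) scale these differences are 2.83, 3.45 and 6.66, at percentiles 99.8, 99.9 and 100 of the 13449 genes tested. By quantitative RT-PCR in independent experiments, the paper reports higher Igf2 after depletion of Pontin and of Oct4. By the same method it reports Igf2 as unchanged after linc1253 knockdown.

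The WT and Tc 2D libraries come from different lines, and Igf2 also differed between the lines. In ZHBTc4 cells with the control shRNA, Igf2 was 5.34-fold higher than in WT (interval 4.43 to 6.48), with a log2 difference of 2.22. Set against the 2 control libraries of its own line, the Tc 2D level was 22.5-fold higher (21.2 to 23.8), with log2 differences of 4.31 from control library 1 and 4.58 from control library 2. Infection, the shRNA vector, the table and the sequencer model differ between these libraries along with tetracycline, and cannot be told apart from it in any comparison of Tc 2D with the ZHBTc4 control. The Igf2 difference was again at percentile 100, here of 13586 genes. With all 8 libraries on 1 TMM scale it was 4.64, and the difference between lines was 2.08. Of the log2 difference of 6.66 from WT, 2.22 thus lay between WT and the ZHBTc4 control and 4.44 between that control and Tc 2D.

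The Igf2 gene lies on chromosome 7 of NCBIM37, the build of the authors' files, from 149836673 to 149852721 on the minus strand, and RefSeq lists 4 starts for it. The 250 bases before each start are shown because Igf2 has the largest change of the genes here and because these stretches differ in CpG content. Methylation was not measured. They are given 5′ to 3′ on the strand of the gene from RefSeq (GRCm38.p6), with each CpG in capitals. They lie, in this order, at chr7:142666817-142667066, chr7:142661272-142661521, chr7:142658805-142659054 and chr7:142657497-142657746.
Igf2 start 1: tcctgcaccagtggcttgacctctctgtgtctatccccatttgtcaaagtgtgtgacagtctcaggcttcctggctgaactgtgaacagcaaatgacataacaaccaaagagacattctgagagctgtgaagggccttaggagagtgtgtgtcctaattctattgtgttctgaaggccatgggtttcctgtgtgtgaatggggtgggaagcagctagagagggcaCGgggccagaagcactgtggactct
Igf2 start 2: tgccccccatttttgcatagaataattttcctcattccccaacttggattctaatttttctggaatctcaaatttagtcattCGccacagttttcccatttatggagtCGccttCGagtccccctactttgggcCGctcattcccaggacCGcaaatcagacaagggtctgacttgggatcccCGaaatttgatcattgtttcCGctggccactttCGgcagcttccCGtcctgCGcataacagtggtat
Igf2 start 3: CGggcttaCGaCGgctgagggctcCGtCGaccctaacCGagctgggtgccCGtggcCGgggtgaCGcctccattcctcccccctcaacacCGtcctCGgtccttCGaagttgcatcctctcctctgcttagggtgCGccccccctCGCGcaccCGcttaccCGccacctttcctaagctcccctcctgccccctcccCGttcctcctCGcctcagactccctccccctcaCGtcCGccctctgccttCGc
Igf2 start 4: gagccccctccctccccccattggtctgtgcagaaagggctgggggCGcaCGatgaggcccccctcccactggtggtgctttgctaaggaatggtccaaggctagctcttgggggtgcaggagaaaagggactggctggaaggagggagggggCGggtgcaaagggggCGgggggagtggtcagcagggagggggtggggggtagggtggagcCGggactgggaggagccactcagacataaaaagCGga
These stretches hold 1, 10, 22 and 6 CpG, against a median of 6 over 32536 reference promoters. The gene-level values do not tell which start was used. The annotation places Igf2as, a long non-coding RNA of the opposite strand, and the microRNA Mir483 within Igf2. The library kit did not mark strand, so that reads of Igf2 and Igf2as cannot be told apart and the Igf2 values are uncertain to that extent.

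On NCBIM37, Cdkn1c lies at 150644255 to 150646955 and Phlda2 at 150687450 to 150688446, both on the minus strand of chromosome 7 as Igf2 is. Peg10 (4697306 to 4710514) and Mest (30673547 to 30698457) are on the plus strand of chromosome 6. Igf2r lies on chromosome 17 from 12875272 to 12962530 and Grb10 on chromosome 11 from 11830511 to 11938686, both on the minus strand. Plagl1 on chromosome 10 (12810497 to 12851500) and Dlk1 on chromosome 12 (110691033 to 110701546) are on the plus strand. All values are counts over the exons of the whole gene.

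Markers of other cell types moved along with Igf2 in some libraries and not in others. Of 31 fibroblast markers, 28 were tested in the OHT comparisons, and 25 were higher than WT in OHT 3D and 25 in OHT 4D, where 6.01% and 6.48% of all genes were higher. Acta2, a smooth muscle actin of contractile fibroblasts, was at 5.90 CPM in WT, 94.6 in OHT 3D and 112 in OHT 4D. Col1a1, a chain of fibrillar collagen, was at 4.20, 46.5 and 64.6 CPM. The summed level of the fibroblast list was 967 CPM in WT, of which 794 belonged to Fn1 alone, and 1328 and 1387 in OHT 3D and OHT 4D. Whether fibroblasts were present in the OHT libraries, and what part they had in the Igf2 level, was not tested. At Tc 2D, where Igf2 was highest, Acta2, Postn, Lum, Dcn and S100a4 had 0 reads (5 of the 31 markers), which allows up to 0.106 CPM. Lum had 0 reads in WT as well, Dcn 3, S100a4 6 and Postn 11. Col1a1 was at 1.34 CPM there. Of the 28 tested, 6 were higher and 10 lower in Tc 2D than in WT. The higher ones were Pdgfrb (0.715 CPM in WT and 25.1 in Tc 2D), Vim (34.1 and 121), Col5a1 (7.29 and 17.1), Col5a2 (1.30 and 3.77), Fbn1 (2.24 and 7.58) and Pdgfra (1.97 and 6.55). Markers of this list are expressed by other cells too. Against the ZHBTc4 control, where Vim had 217 and 163 CPM, 2 of 22 were higher and 11 lower, with a median of -0.60. Over all genes 23.9% were higher and 25.8% lower against WT, and 18.3% and 30.7% against the ZHBTc4 control. The list summed to 763 CPM in Tc 2D, of which Fn1 gave 515.

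Trophectoderm markers, genes of the outer cells of the blastocyst, were higher in Tc 2D for 12 of 14 tested and lower for none of them, against WT and also against the ZHBTc4 control. At OHT 3D, 7 of 14 were higher and 1 lower, and in OHT 4D 10 were higher and 0 lower. Their summed level was 117 CPM in WT, 200.2 in OHT 3D, 392.3 in OHT 4D, 635 in Tc 2D and 121 to 139 in the shRNA libraries. Primitive endoderm markers were higher for 7 of 15 in OHT 3D, 12 of 15 in OHT 4D and 7 of 15 in Tc 2D against WT, with 1, 0 and 1 lower. Pluripotency markers were lower in Tc 2D for 16 of 18 tested against WT, and for 3 of 18 at either OHT time point, where 0 were higher at 3 days and 1 at 4 days. Of all genes, 6.01% were higher and 5.88% lower in OHT 3D, 6.48% and 8.89% in OHT 4D, and 23.9% and 25.8% in Tc 2D against WT. Whether cells of these types were present, and their part in the Igf2 level, was not tested.

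Over the 8 libraries, the genes whose log2(CPM + 1) followed Igf2 most closely, among 10429 with a mean of at least 5 CPM, were Sdc3 (Pearson r = 0.98), Hand1 (0.98), 2410002I01Rik (0.98), Nxf7 (0.97) and Tinagl1 (0.97). These correlations describe 8 libraries that include pairs of the same group and a single library far above the rest, and they carry no p. Hand1, a transcription factor of the trophoblast and one of the trophectoderm markers, was at 0.268 CPM in WT, 3.08 in OHT 3D, 5.34 in OHT 4D and 61.8 in Tc 2D. In the shRNA libraries it lay between 2.76 and 5.35 CPM. Among the other imprinted growth genes, Peg10 had the highest r with Igf2, 0.80, and Grb10 the lowest, -0.90.

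**Figure D1:**
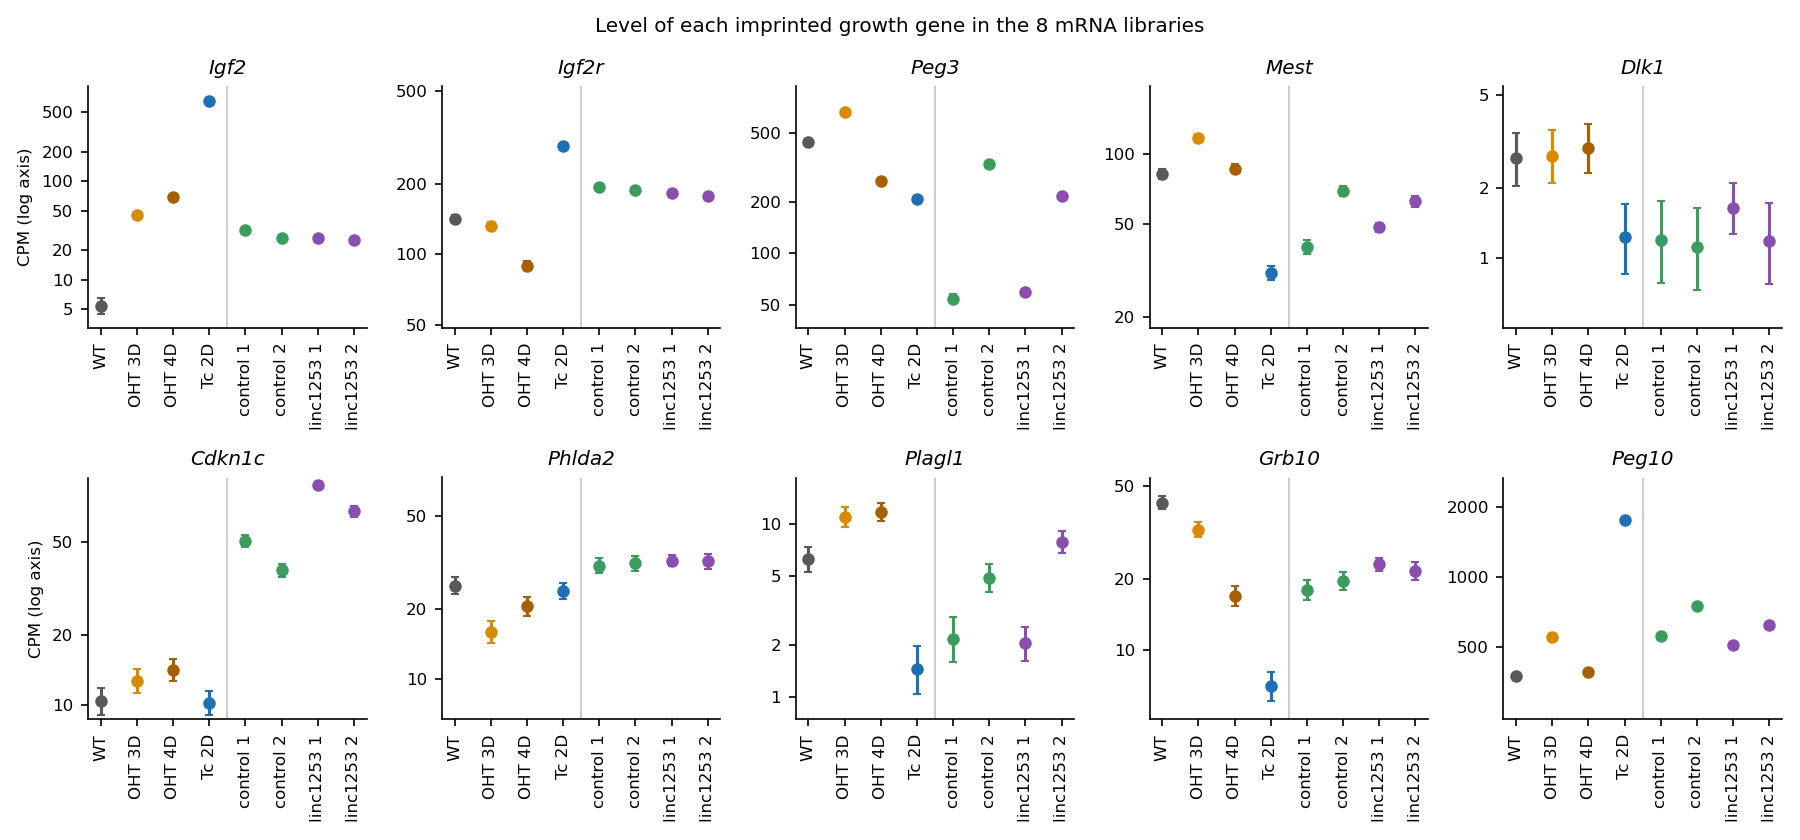
Level of each gene in CPM (log axis, with a range of its own for each gene) in the 8 mRNA libraries, with 95% counting intervals; the grey line parts the 2 separately normalized tables. Igf2 ran from 5.45 CPM in WT to 654 in Tc 2D, whereas Peg3 and Plagl1 differed most between the 2 libraries of a group.

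Per kilobase of exon, which allows levels of different genes to be compared within a library, the order of the 10 genes differed between libraries. In WT the levels per kilobase ran from 56.6 CPM for Peg10 through 33.6 for Peg3, 33.3 for Phlda2, 20.8 for Mest and 15.1 for Igf2r to 5.35 for Cdkn1c and 4.65 for Grb10. Igf2 followed at 0.993, Plagl1 at 0.852 and Dlk1 at 0.474. The counting intervals of Peg3 and Phlda2, of Cdkn1c and Grb10, and of Igf2 and Plagl1 overlapped. Igf2 was thus the eighth of the 10 genes in WT. It was the sixth in OHT 3D with 8.18 CPM per kilobase, the fifth in OHT 4D with 12.7 and the second in Tc 2D with 119, where Peg10 had 263. Phlda2 with 31.7 and Igf2r with 30.9 came next and overlapped. Peg3 and Cdkn1c also changed places widely, Peg3 between rank 2 in WT and rank 7 in control library 1, and Cdkn1c between rank 7 in Tc 2D and rank 2 in linc1253 library 1.

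The question of the OHT libraries is which genes change when Pontin is removed. OHT treatment, Cre activation and time in culture differ from WT along with Pontin, and cannot be told apart from it here. At OHT 3D, 2 of the 10 genes were higher, Igf2 and Plagl1, and 1 was lower, Phlda2. Over all genes tested, 6.01% were higher and 5.88% lower by the same limit. At OHT 4D, Igf2 and Plagl1 were higher, and Igf2r, Peg3 and Grb10 were lower, against 6.48% higher and 8.89% lower over all genes. The median log2 difference of the 10 genes was 0.39 in OHT 3D and 0.06 in OHT 4D, against -0.02 and -0.00 for all genes.

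Plagl1, a zinc finger transcription factor expressed from the father's allele and known as a regulator of other imprinted genes, was the other member that was higher at both time points. Its level was 6.21 CPM in WT, 10.9 in OHT 3D, 11.7 in OHT 4D and 1.44 in Tc 2D. The shRNA libraries had 2.17 and 4.86 CPM with the control and 2.04 and 7.85 CPM with the linc1253 shRNA. Both OHT libraries thus lay above all others, and Tc 2D lay lowest. Against WT it was 1.76-fold (interval 1.42 to 2.19) and 1.88-fold (1.53 to 2.33) higher. These ratios are smaller than the 2.24-fold difference between the 2 control libraries of ZHBTc4 cells, described below, so that they are not beyond the spread seen between libraries of one group in the other line.

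Peg3, a zinc finger protein expressed from the father's allele that acts on fetal and placental growth, went in opposite directions at the OHT time points. It had 447 CPM in WT, 663 in OHT 3D, 264 in OHT 4D and 208 in Tc 2D. In the shRNA libraries it had 54.7 and 333 CPM with the control and 60.0 and 215 with the linc1253 shRNA. The ratio to WT was 1.48 in OHT 3D (interval 1.45 to 1.52) and 0.590 in OHT 4D (0.571 to 0.609). The log2 difference in OHT 3D, 0.57, was just under the limit and passed it when the 4 libraries were rescaled by median ratios. The largest of the other members just under the limit in OHT 3D were Peg10 at 0.55 and Mest at 0.50, and just over it was Phlda2 at -0.63, which was -0.57 and not called when 3 in place of 1 was added before log2.

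Peg3 lies on chromosome 7 from 6656603 to 6683132, far from Igf2, with which it shares the chromosome. The 250 bases before its RefSeq start (GRCm38.p6, chr7:6730420-6730669, minus strand) are shown because Peg3 is the gene here with the most divergent libraries. Each CpG is in capitals.
Peg3: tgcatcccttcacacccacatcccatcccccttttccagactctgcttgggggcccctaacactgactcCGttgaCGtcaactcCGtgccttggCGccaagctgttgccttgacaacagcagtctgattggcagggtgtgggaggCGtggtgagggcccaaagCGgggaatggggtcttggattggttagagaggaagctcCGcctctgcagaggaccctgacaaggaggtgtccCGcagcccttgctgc
The stretch holds 8 CpG. It also holds the letters GGGGGCCCC on at least 1 strand, which 0.332% of the 32536 promoters hold. The other letters searched on both strands were TATAAA, found for Phlda2 alone among the 8 genes with a listed promoter (12.3% of all promoters), and ATGCAAAT, found for none of them (1.62%). Cdkn1c and Peg10 had no entry. These are matches of letters and not sites.

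The receptor and the signalling adaptor among the 10 genes were lower in OHT 4D. Igf2r, the receptor that takes up Igf2 protein for breakdown in the lysosome and is expressed from the mother's allele, had 142 CPM in WT, 133 in OHT 3D and 89.5 in OHT 4D. Grb10, an adaptor that dampens signals of the insulin and IGF receptors, had 42.6 CPM in WT, 32.7 in OHT 3D and 17.0 in OHT 4D. Grb10 was therefore 0.400 times the WT level in OHT 4D (interval 0.355 to 0.451), with a log2 difference of -1.27 at percentile 0.468. Igf2r was 0.629 times the WT level (0.594 to 0.665), with a log2 difference of -0.66.

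Transcript length moved with the change in OHT 4D over all genes. The longest 10% of genes, with 8.22 kb of exon or more, had a median log2 difference of -0.34 there, against -0.00 for all genes and 0.08 for the same genes in OHT 3D. Peg3 with 13.3 kb, Igf2r with 9.44 kb and Grb10 with 9.16 kb belong to these genes, and no other member does. The part of transcript length in their lower levels in OHT 4D was not tested. The annotation also places the long non-coding RNA Airn on the strand opposite to Igf2r, with which its reads could not be told apart.

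Phlda2, a maternally expressed gene that limits growth of the placenta, had 25.2 CPM in WT, 16.0 in OHT 3D and 20.6 in OHT 4D. It was 0.633 times the WT level in OHT 3D (interval 0.553 to 0.725), and its log2 difference in OHT 4D was -0.28. Cdkn1c, an inhibitor of cyclin-dependent kinases that is also expressed from the mother's allele, had 10.3, 12.7 and 14.1 CPM in WT, OHT 3D and OHT 4D. Its log2 differences of 0.27 and 0.42 were not called. Mest had 82.0, 117 and 86.2 CPM, Peg10 had 377, 552 and 390, and Dlk1 had 2.68, 2.76 and 2.98. None of these passed the limit at either time point, and Mest and Peg10 were both highest in OHT 3D, as Peg3 was.

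**Figure D2:**
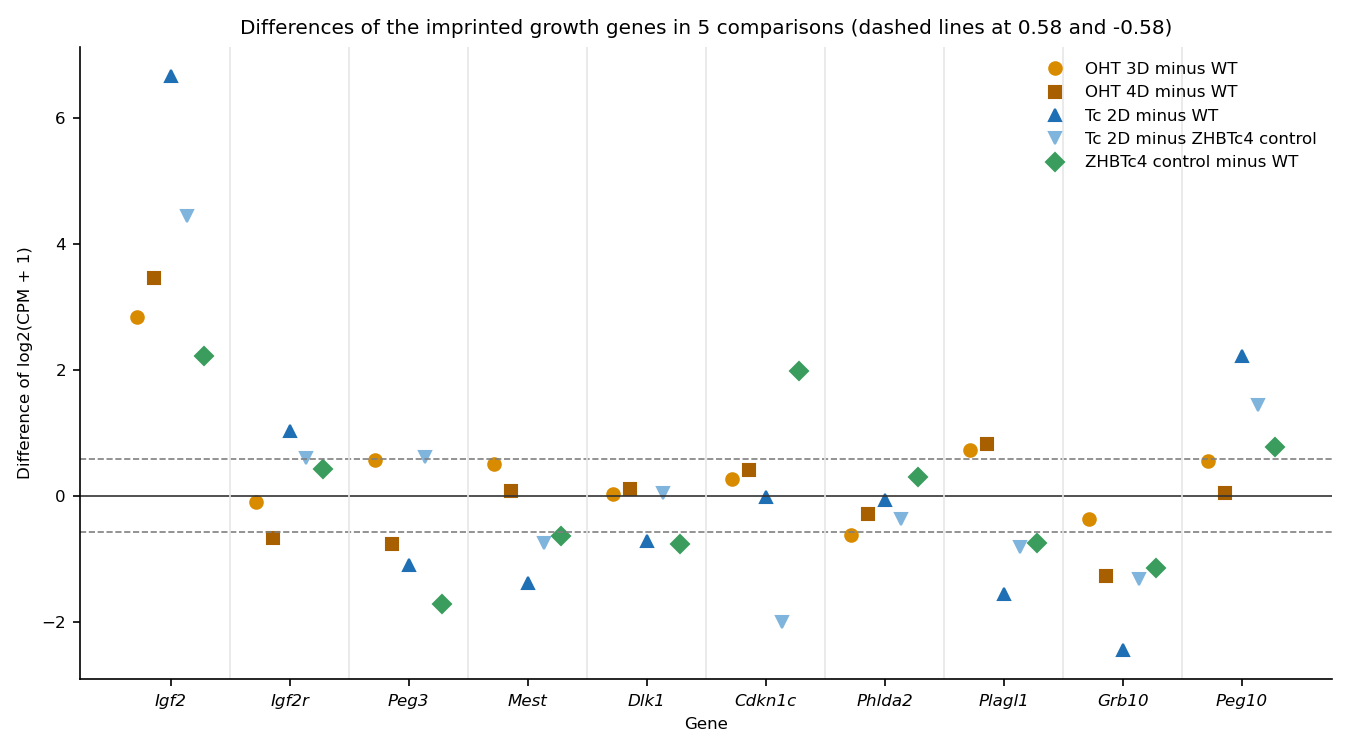
Difference of log2(CPM + 1) for each gene in 5 comparisons, with dashed lines at the limit of 0.58 in either direction; points carry no error bar since the Pontin and Oct4 groups have 1 library each. Igf2 lies at or above 2.22 in all of them, whereas Peg3 lies at 0.57 for OHT 3D and -0.76 for OHT 4D.

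At Tc 2D, where the question is which genes change when Oct4 is lost, 3 of the 10 genes were higher than WT, Igf2, Igf2r and Peg10, and 5 were lower, Peg3, Mest, Dlk1, Plagl1 and Grb10. Over all genes 23.9% were higher and 25.8% lower. Against the control libraries of ZHBTc4 cells, Igf2, Igf2r, Peg3 and Peg10 were higher and Mest, Cdkn1c, Plagl1 and Grb10 were lower, against 18.3% and 30.7% of all genes. The median of all genes was shifted by -0.17 in that comparison. On 1 TMM scale the shift was 0.01, and the share of higher genes among all calls went from 37.3% to 51.0%. Igf2, Igf2r and Peg10 were thus higher and Mest, Plagl1 and Grb10 lower against either control, although Mest was at -0.56 and not called against the ZHBTc4 control once the tables shared a scale. Peg3 was called higher against the ZHBTc4 control through control library 1 alone. Its log2 difference was 1.91 from control library 1 and -0.67 from control library 2, and the ratio to the reads of both libraries pooled was 1.05 (interval 1.01 to 1.08).

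Peg10, a gene derived from a retrotransposon that the placenta needs and that is expressed from the father's allele, had the highest level per kilobase of the 10 genes in all 8 libraries. The sources used here do not say how reads with several alignments were counted, so that its level and rank are uncertain to that extent. It had 377 CPM in WT, 552 in OHT 3D, 390 in OHT 4D and 1753 in Tc 2D. With the shRNAs it had 559 and 751 CPM in the control and 513 and 622 CPM in the linc1253 libraries. Tc 2D thus stood above all the others, 4.65-fold over WT (interval 4.55 to 4.76) and 2.66-fold over the ZHBTc4 control (2.63 to 2.70). The ZHBTc4 control was itself 1.75-fold over WT (1.70 to 1.79).

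Igf2r had 292 CPM in Tc 2D, 195 and 188 in the control libraries and 184 and 178 in the linc1253 libraries. The ligand and the receptor that removes it were hence both highest in Tc 2D, Igf2r by 2.05-fold over WT (1.97 to 2.14) and by 1.52-fold over the ZHBTc4 control (1.48 to 1.57). Against control library 1 alone the log2 difference of Igf2r was 0.578 and not called. Long transcripts as a whole were higher in Tc 2D, with a median of 0.33 against WT for the longest 10% of genes, and the part of length in the Igf2r value was not tested.

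Grb10 had 6.98 CPM in Tc 2D, the lowest of its 8 values. The control libraries had 18.0 and 19.7 CPM and the linc1253 libraries 23.2 and 21.7. It was 0.164 times the WT level (0.140 to 0.191) and 0.370 times the ZHBTc4 control (0.315 to 0.432). Mest, a paternally expressed gene of the hydrolase family, was lowest in Tc 2D as well, with 30.8 CPM, against 39.9 and 69.0 in the controls and 48.4 and 62.4 with the linc1253 shRNA. Its ratio was 0.376 to WT (0.347 to 0.408) and 0.561 to the ZHBTc4 control (0.519 to 0.606). Mest was not called against control library 1 alone, where its log2 difference was -0.36, and was at -1.14 against control library 2. The annotation overlaps Mest with Copg2, and reads in the overlap cannot be told apart.

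Cdkn1c had 10.2 CPM in Tc 2D, where WT had 10.3, but 50.5 and 37.6 CPM in the ZHBTc4 control libraries. Set against WT it showed a log2 difference of -0.02 (ratio 0.986, interval 0.827 to 1.18), and set against its own line it showed -1.995, a ratio of 0.232 (0.205 to 0.263). The log2 difference thus depended on the control, as it did for Igf2 and Peg3. Its neighbour Phlda2, 40.5 kb away, had 24.0 CPM in Tc 2D and 30.8 and 31.4 in the controls and was not called against either. Igf2 is 792 kb from Cdkn1c on the same chromosome. Short transcripts as a whole were lower in Tc 2D. The shortest 10% of genes had medians of -0.48 against WT and -0.65 against the ZHBTc4 control. Cdkn1c with 1.93 kb of exon and Phlda2 with 0.757 kb are the shortest of the 10 genes, and the part of length in their values was not tested.

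Dlk1, a transmembrane protein related to Notch ligands, was low throughout, at 2.68 CPM in WT, 1.23 in Tc 2D, 1.20 and 1.12 in the controls and 1.65 and 1.18 with the linc1253 shRNA. The control values rest on 26 reads each. Dlk1 was lower in Tc 2D than in WT (ratio 0.460, interval 0.294 to 0.709), and its ratio to the ZHBTc4 control was 1.07 (0.674 to 1.67), so that at this depth no difference from its own line was detectable. Plagl1 fell below both controls, with ratios of 0.233 to WT (0.160 to 0.332) and 0.406 to the ZHBTc4 control (0.281 to 0.575). Plagl1 was not called against control library 1 alone, where its log2 difference was -0.37. With 3 added before log2, Dlk1 was not called against WT (-0.43), nor was Plagl1 against the ZHBTc4 control (-0.52).

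Between the lines, ZHBTc4 control against WT, 3 of the 10 genes were higher in ZHBTc4 cells, Igf2, Cdkn1c and Peg10, and 5 were lower, Peg3, Mest, Dlk1, Plagl1 and Grb10. Over all genes 20.1% were higher and 9.93% lower. The median of all genes was 0.14 on the deposited scales and -0.03 on 1 TMM scale, where higher genes went from 66.9% to 49.5% of all calls and the members called were 3 higher and 5 lower again. Cdkn1c was 4.24-fold higher (3.70 to 4.89) and Grb10 0.443 times the WT level (0.403 to 0.486). Line, infection, table and sequencer model differ together in this comparison and cannot be told apart. The line difference in Peg3, Mest and Plagl1 rested largely on control library 1. With control library 2 alone the log2 differences from WT were -0.42, -0.24 and -0.30, and none of these 3 was called. Without control library 2 Peg10 was at 0.57 and not called, and with 3 added before log2 Dlk1 (-0.45) and Plagl1 (-0.53) were not.

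The genes beside the imprinted growth genes give the wider domains. Of 38 imprinted or neighbouring genes listed for these domains, 30 were found in the tables. H19, Meg3, Airn and Kcnq1ot1 were not analysed here. At Tc 2D, 10 of the 21 tested against WT were higher and 6 lower, with a median log2 difference of 0.13, where 23.9% of all genes were higher and 25.8% lower. The 10 include Slc22a3, Zim1 and Pon3, which passed the limit of 1 CPM through Tc 2D alone, so that their direction was set by that limit. Against the ZHBTc4 control 7 of 24 were higher and 10 lower, with a median of -0.17, the same as that of all genes, of which 18.3% were higher and 30.7% lower. Here Slc22a3, among the higher, passed the limit through Tc 2D alone. Th, Tspan32, Asb4, Calcr and Dio3, among the lower, passed it through the control libraries alone. At either OHT time point 2 of 21 were higher and 1 lower, against 6.01% and 5.88% of all genes at 3 days and 6.48% and 8.89% at 4 days. The 2 at 3 days include Dio3, which passed the limit through OHT 3D alone.

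In the Peg10 domain, Sgce, which lies 0.102 kb from Peg10, was higher in Tc 2D as Peg10 was. Sgce, a sarcoglycan, had 10.4 CPM in WT, 35.6 in Tc 2D, 12.2 and 11.4 in the controls and 10.6 and 11.4 with the linc1253 shRNA. Casd1 had 10.7 CPM in WT, 28.8 in Tc 2D and 7.84 and 8.82 in the controls. The log2 differences in Tc 2D were 1.68 and 1.52 for Sgce and 1.34 and 1.68 for Casd1, against WT and against the ZHBTc4 control. Ppp1r9a, further off in this domain, differed by -0.21 and 0.16, Pon2 by 0.59 and 0.08, and Pon3 by 1.46 and 0.39. Pon3 passed the limit of 1 CPM against WT through Tc 2D alone. Asb4 and Calcr passed it against the ZHBTc4 control through the control libraries alone, and their differences are not read. At OHT 4D, Ppp1r9a was lower by a log2 difference of -1.09, whereas Sgce and Casd1 differed by 0.09 and 0.11.

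In the Grb10 domain, Grb10 and both neighbours were lower in Tc 2D against both controls. Cobl, an actin nucleator, had 243 CPM in WT, 13.4 in Tc 2D and 286 and 299.3 in the controls. Ddc, the decarboxylase of dopamine and serotonin synthesis, had 8.81 CPM in WT, 1.44 in Tc 2D and 17.0 and 13.9 in the controls. The log2 differences were -4.09 and -4.35 for Cobl and -2.004 and -2.75 for Ddc. At OHT 4D, where Grb10 was lower by -1.27, Cobl differed by -0.47 and Ddc by 0.38, and neither was called.

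The other domains were mixed. Beside Igf2r, Slc22a3 had 31 reads (1.09 CPM) in Tc 2D and at most 7 in any other library, so that it passed the limit of 1 CPM through Tc 2D alone and its difference is not read. Beside Phlda2, which was not called in Tc 2D, Slc22a18 was higher by log2 differences of 1.11 and 0.68 and Osbpl5 by 1.00 and 0.72. Osbpl5 was also higher in both OHT libraries, by 0.78 and 0.95. Beside Cdkn1c, Tssc4 was lower by -0.73 and -0.69, and by -0.51 and not called against the ZHBTc4 control once the tables shared a scale. Beside Dlk1, which was lower against WT and not called against the ZHBTc4 control, Begain differed by -0.87 and -0.11. Dio3 had 0.141 CPM in Tc 2D and passed the limit against the ZHBTc4 control through the control libraries alone, so that its difference is not read. Beside Plagl1, which was lower in Tc 2D, Phactr2 had a log2 difference of 1.39 against WT and 1.09 against the ZHBTc4 control. Beside Mest, Copg2 differed by 0.13 and 0.03. Beside Peg3, Zim1 had 0.402 CPM in WT and 4.26 in Tc 2D, while the controls had 0.969 and 1.08. Against WT, Zim1 passed the limit through Tc 2D alone, so that this difference is not read. Beside Igf2, Ins2 had 0 reads in all 8 libraries, Ascl2 had log2 differences of 0.87 and -0.22, and Cd81 was lower by -1.04 and -0.81. All the called directions named for neighbours held with the libraries rescaled by median ratios and with the 8 libraries on 1 scale.

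**Figure D3:**
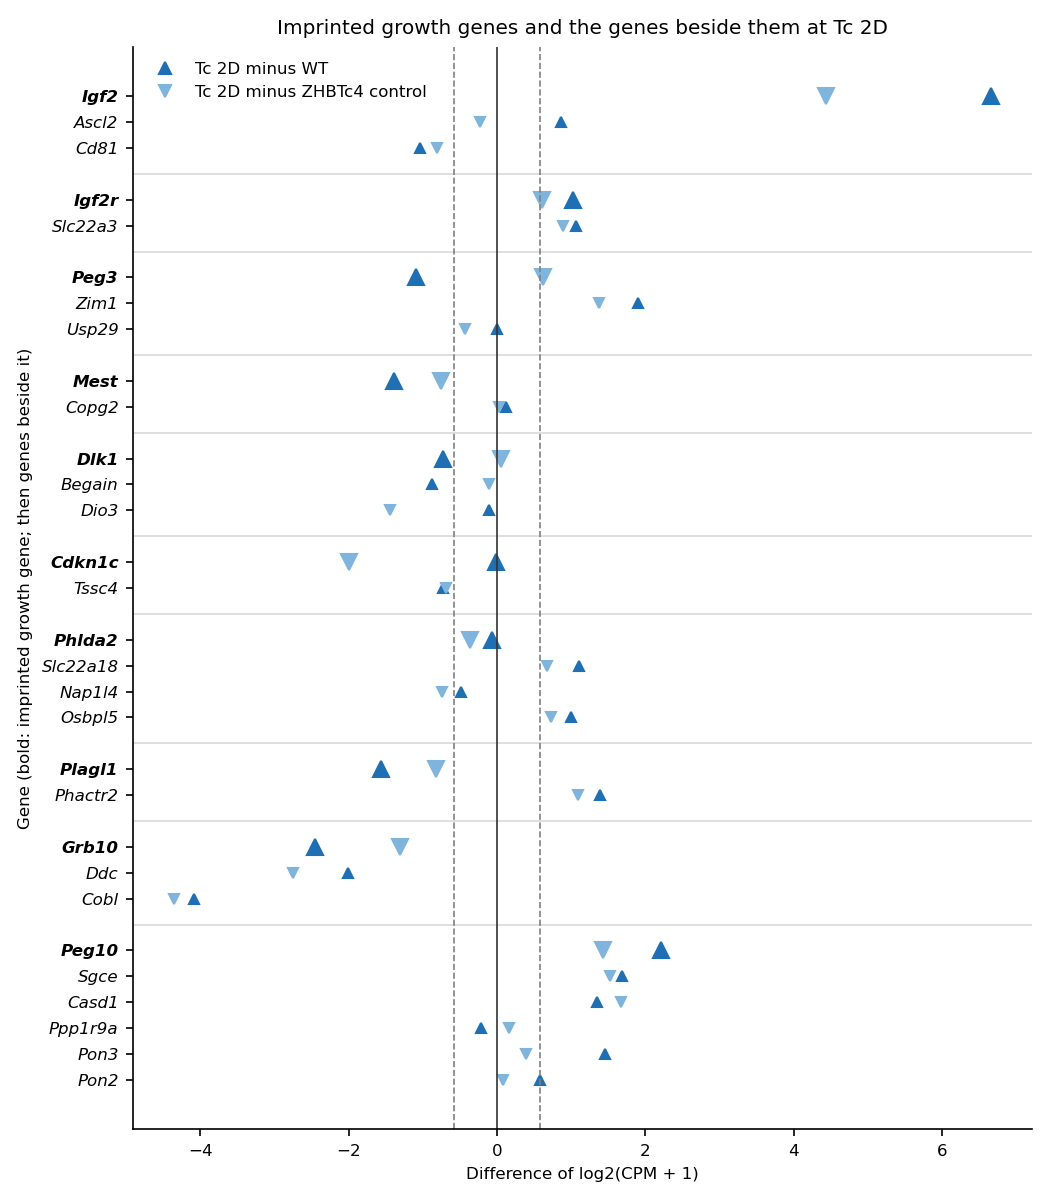
Difference of log2(CPM + 1) in Tc 2D against WT (upward triangles) and against the ZHBTc4 control (downward triangles) for the imprinted growth genes (bold) and the genes nearest to them, for domains with a neighbour tested in both comparisons; dashed lines mark 0.58 in either direction. Peg10, Sgce and Casd1 lie to the right and Grb10, Ddc and Cobl to the left for both controls, whereas Plagl1 and Phactr2 lie on opposite sides. The limit of 1 CPM set the direction of Slc22a3 for both controls and of Zim1 and Pon3 against WT. It also set that of Dio3 against the ZHBTc4 control.

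Genes that pass on or modify the Igf2 signal moved both ways. Of 19 genes of the IGF axis, 16 were tested in the first table. There were 4 higher and 3 lower in each of the OHT 3D, OHT 4D and Tc 2D comparisons with WT, with medians of -0.07, 0.02 and -0.08. Among the higher, Igfbp7 passed the limit of 1 CPM through the OHT libraries alone, Pappa through OHT 3D alone and Irs1 through Tc 2D alone. That limit thus set the direction of Igfbp7 in both OHT libraries, of Pappa in OHT 3D and of Irs1 in Tc 2D. Over all genes the higher and lower shares were 6.01% and 5.88% in OHT 3D, 6.48% and 8.89% in OHT 4D, and 23.9% and 25.8% in Tc 2D. Against the ZHBTc4 control 3 of 15 were higher and 5 lower, with a median of -0.42, where 18.3% and 30.7% of all genes were. Igf1, among the higher, passed 1 CPM through Tc 2D alone, and Igfbp7, Irs4 and Igfals, among the lower, through the control libraries alone. Igfbp2, a secreted binding protein for IGFs, had 383 CPM in WT, 150 in OHT 3D and 273 in OHT 4D. Igfbp3, another binding protein, had 12.2, 18.9 and 36.0 CPM in the same libraries, a log2 difference of 1.48 in OHT 4D. At Tc 2D the receptor Igf1r had 34.7 CPM against 9.57 in WT, but 31.9 and 30.4 in the ZHBTc4 controls. Irs2, a substrate of the insulin and IGF receptors, had 31.6 CPM in Tc 2D, 5.63 in WT and 11.8 and 9.89 in the controls, so that it was higher against both by log2 differences of 2.30 and 1.46. The RNA-binding protein gene Igf2bp2 was lower in Tc 2D by -0.92 and -0.79.

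The 4 shRNA libraries are the only ones with replicates, and in them the 2 libraries of a group differed widely for some of these genes. Peg3 was 6.09-fold higher in control library 2 than in control library 1, and 3.59-fold higher in linc1253 library 2 than in linc1253 library 1. Plagl1 was 2.24-fold and 3.86-fold higher in the libraries numbered 2, and Mest 1.73-fold and 1.29-fold. By the size of the mean of both log2 differences, 6 of 13407 genes exceeded Peg3 and 42 exceeded Plagl1. In the control group 3 members (Peg3, Mest and Plagl1) were above 0.58 and 0 below -0.58, against 1.93% and 1.16% of all genes. In the linc1253 group these were 2 (Peg3 and Plagl1) and 0, against 1.93% and 0.671%. Both Peg3 and Plagl1 were thus above 0.58 in both groups, and 1.18% of all genes were past 0.58 in the same direction in both.

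By contrast, Igf2r, Phlda2 and Grb10 hardly differed between the libraries of a group. Phlda2 had 30.8 and 31.4 CPM in the controls and 32.3 and 32.1 with the linc1253 shRNA. Igf2 had ratios of 0.822 and 0.952 between libraries 2 and 1. Igf2 was thus far steadier than Peg3 between libraries of a group.

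Some fibroblast markers were also higher in the libraries numbered 2. Acta2 had 0.277 and 3.31 CPM in the controls and 0.180 and 17.7 CPM in the linc1253 libraries, and the genes with a larger difference than Peg3 were Acta2, Tnc, Pnp2, Thbs1, Lyz2 and Esrp1. Esrp1 is an epithelial splicing regulator and Lyz2 a lysozyme of macrophages. Of 26 fibroblast markers tested, 5 were above 0.58 in both groups and none was below -0.58 in both. Of all genes, 1.18% were past 0.58 in the same direction in both. The summed level of the list was 1353 and 1357 CPM in the controls and 1305 and 1376 CPM in the linc1253 libraries. Fn1 alone gave 798 and 899 CPM of these in the controls and 699 and 783 CPM in the linc1253 libraries. Between the control libraries Col1a1 had 5.67 and 6.24 CPM, Col1a2 0.738 and 2.24, and Tagln 2.77 and 6.67. Between the linc1253 libraries Col1a1 had 5.18 and 12.5 CPM, Col1a2 0.876 and 8.77, and Tagln 2.83 and 17.1. Other markers of the list were lower in the libraries numbered 2, among them Vim with 217 and 163 CPM in the controls and 205 and 173 in the linc1253 libraries, and Thy1 with 33.5 and 27.4 and with 33.6 and 26.9. Primitive endoderm markers had median log2 differences between libraries 2 and 1 of 0.18 in the control group and 0.59 in the linc1253 group, against 0.11 and 0.48 for the fibroblast markers. They summed to 501 and 562 CPM in the controls and 493 and 687 CPM in the linc1253 libraries. The part of other cells in the Peg3 and Plagl1 values was not tested.

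**Figure D4:**
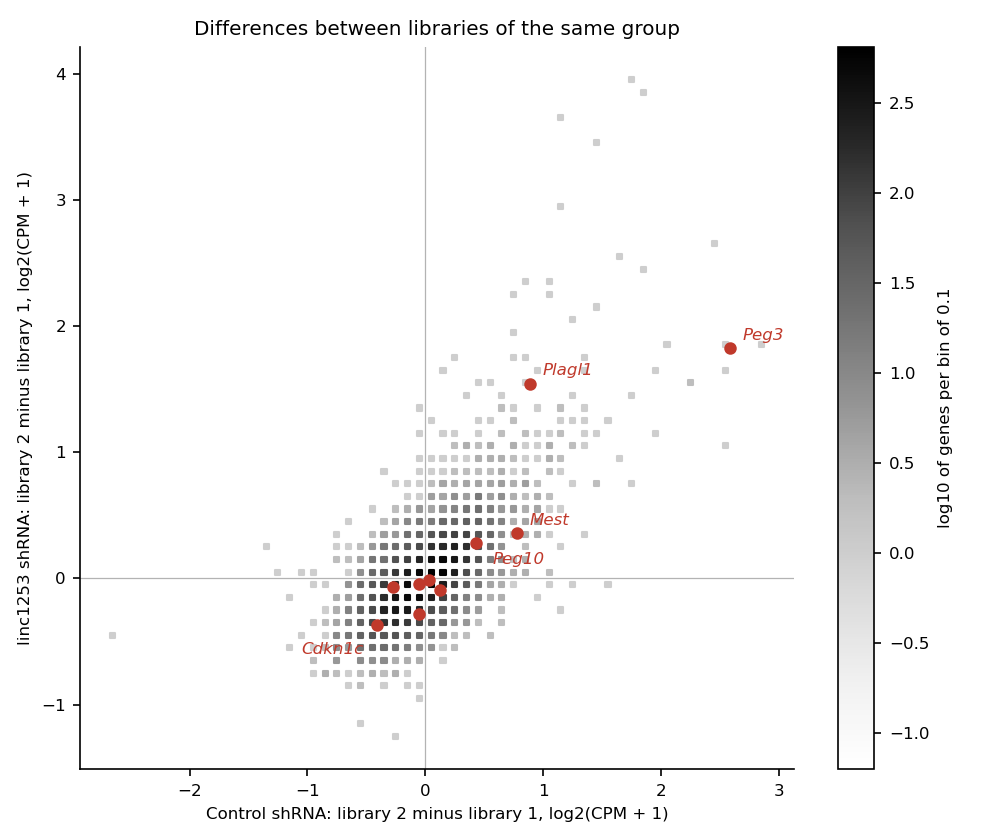
Difference of log2(CPM + 1) between the 2 libraries of the control shRNA (horizontal) and between the 2 libraries of the linc1253 shRNA (vertical), with 13407 genes as shaded bins and the 10 imprinted growth genes as red points. Peg3 at 2.59 and 1.83 and Plagl1 at 0.89 and 1.54 lie well away from the bulk of genes, while most other members lie within it.

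Knockdown of linc1253, 2 libraries against 2, called none of the 10 genes in limma, where 0 of 13407 genes passed an adjusted p of 0.05. At an unadjusted p of 0.05, 496 genes were higher (3.7%) and 503 lower (3.75%). The quasi-likelihood test of edgeR also called 0 genes, and DESeq2 called 22 higher (0.164%), Cdkn1c among them, and 28 lower (0.209%). These shares are of all 13407 genes, of which 2860, Dlk1 and Plagl1 among them, had no adjusted p in DESeq2 and could not be called. A limma fit with the replicate number as a block called 6.96% higher, with Cdkn1c, and 7.66% lower, with Peg10. The labels do not say that the number pairs the libraries. No gene of the other lists passed the adjusted limma p of 0.05. Of the 10 genes, 3 were higher in both linc1253 libraries than in both controls (Cdkn1c, Phlda2 and Grb10) and 2 lower (Igf2 and Igf2r), while 18.8% and 19.2% of all genes had groups that did not overlap in these directions. The labels do not say whether the 2 libraries of a group came from separate cultures, so that p-values measure the spread between these libraries, which may be technical.

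Cdkn1c had the largest difference of the 10 genes after knockdown. It had 50.5 and 37.6 CPM with the control shRNA and 87.1 and 67.4 CPM with the linc1253 shRNA, so that the lowest linc1253 library lay above the highest control. The log2 difference was 0.80 with an SE of 0.18, and the limma p of 0.00388 became 0.528 after Benjamini-Hochberg adjustment over all genes. DESeq2 on the recovered reads gave 0.81 and an adjusted p of 0.0074, and the fit with the block gave 6.64e-08, while the other alternatives gave adjusted p-values from 0.164 to 0.612. The call thus depended on the test, and the log2 difference stayed between 0.59 and 1.01 over all 12 alternatives.

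Peg3 had means of 194 ± 197 CPM (SD, n = 2) in the controls and 138 ± 110 with the linc1253 shRNA, a log2 difference of -0.25 whose adjusted p in limma was 0.964. Its spread between libraries of a group was larger than the difference between the groups. Igf2 had 29.2 ± 4.03 and 25.7 ± 0.902 CPM, a log2 difference of -0.17 with an adjusted p of 0.789 in limma. Leaving out 1 library at a time moved Peg3 between -1.54 and 1.05. The other 7 genes had log2 differences between -0.20 and 0.27 and adjusted p-values in limma between 0.707 and 0.965. Of these, Plagl1 moved between -0.51 and 1.04, Mest between -0.32 and 0.45 and Peg10 between -0.41 and 0.02 when 1 library was left out, so that the direction of Peg3, Plagl1, Mest and Peg10 depended on the library left out. The fit with the replicate number as a block gave Peg10 an adjusted p of 0.0353 in limma.

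At the gene starts, the Pontin antibody gave slightly more reads than the GFP antibody, as it did at promoters in general. In windows that began 2.5 kb before the annotated start of each of the 10 genes and ended 500 b after it, there were 685 Pontin reads and 236 GFP reads. Scaled by the reads of each library, 40729076 and 17185883, the log2 ratio was 0.29 (interval 0.08 to 0.51). With 1 read per position and strand it was 0.17, with an interval of -0.05 to 0.39 that includes 0. The median over 21178 promoters was 0.34, with quartiles of -0.10 and 0.76. With 1 library for each antibody there is no test of these ratios.

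Among single genes, Igf2 had the highest ratio, 1.01, from 43 and 9 reads, with an interval of -0.04 to 2.23 and at percentile 85.6 of all promoters. Cdkn1c (0.68, interval 0.02 to 1.39) and Phlda2 (0.60, 0.01 to 1.24) had intervals above 0. The intervals of all 10 genes included the median of all promoters, so that no difference from the typical promoter was detectable at this depth.

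Mest depended on the start that was used. The gene's outermost annotated start had 43 Pontin and 24 GFP reads, a log2 ratio of -0.40 (-1.16 to 0.38). The start that RefSeq lists at position 30688050 of chromosome 6 in NCBIM37 had 92 and 12 reads, a ratio of 1.69 (0.82 to 2.70) at percentile 97.6 of the promoters. RefSeq lists another start at 30683506, with a ratio of -0.20 (-0.85 to 0.48). The 250 bases before these RefSeq starts are shown because their ChIP values differ (GRCm38.p6, plus strand, chr6:30733256-30733505 and chr6:30737800-30738049, each CpG in capitals).
Mest start 1: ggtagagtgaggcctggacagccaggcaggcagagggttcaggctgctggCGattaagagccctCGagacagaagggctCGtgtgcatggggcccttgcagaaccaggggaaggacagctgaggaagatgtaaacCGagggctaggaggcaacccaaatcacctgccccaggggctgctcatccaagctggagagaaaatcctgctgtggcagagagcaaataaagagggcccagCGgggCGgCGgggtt
Mest start 2: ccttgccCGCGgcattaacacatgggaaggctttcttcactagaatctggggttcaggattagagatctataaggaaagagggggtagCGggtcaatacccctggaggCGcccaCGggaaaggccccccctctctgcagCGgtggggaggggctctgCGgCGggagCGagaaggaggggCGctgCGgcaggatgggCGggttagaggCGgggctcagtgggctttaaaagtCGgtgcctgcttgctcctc
The first holds 7 CpG and the second 14. RefSeq lists 1 more start 3 bases from the second, in whose window the same reads fall. The start with the higher ratio was chosen after its values were seen among 14 RefSeq starts, and no test was made. The 4 starts of Igf2 gave 1.01, 0.51, 0.27 and -0.44 in the order in which their sequences are shown, with overlapping intervals, and the windows of neighbouring starts share reads.

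**Figure D5:**
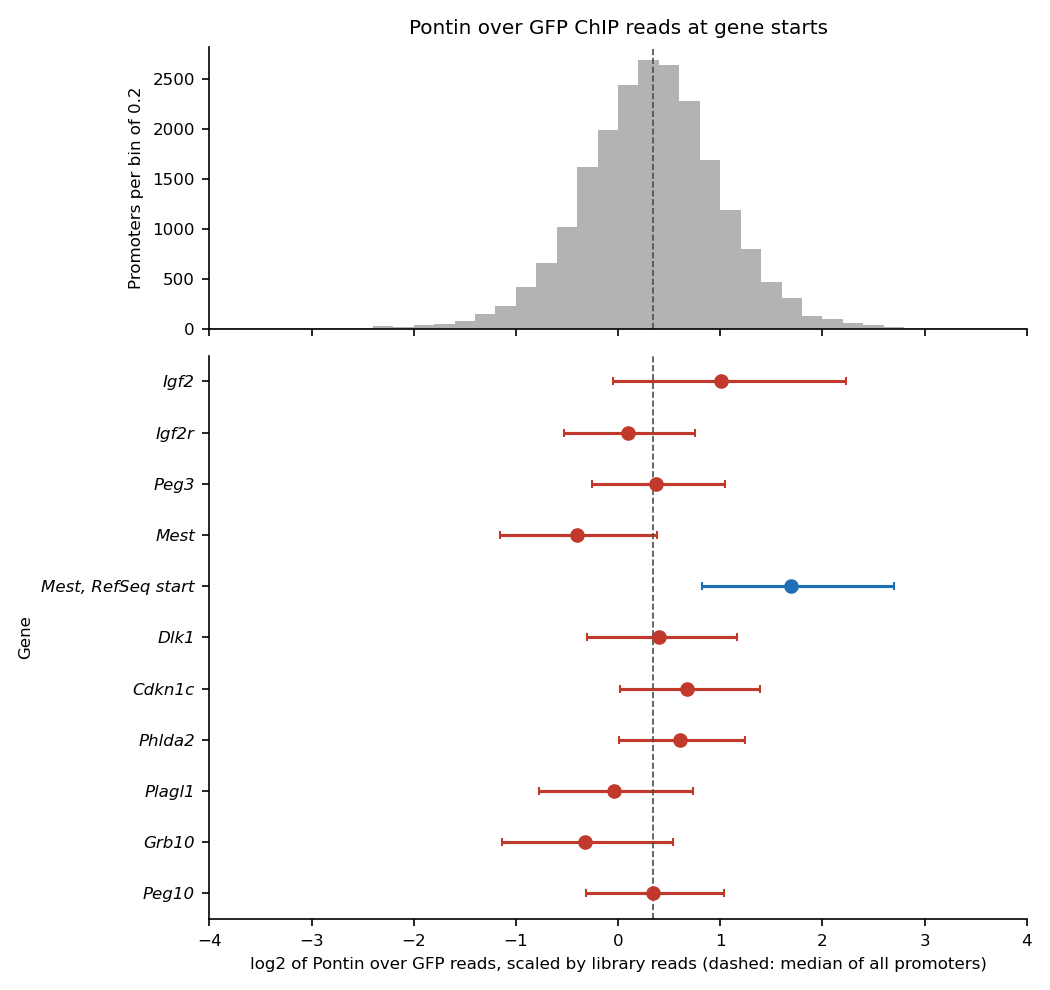
Above, the number of promoters (bins of 0.2) against the log2 of Pontin reads divided by GFP reads, each scaled by its library; below, the ratio at the annotated start of each imprinted growth gene with its 95% counting interval (red) and at a RefSeq start of Mest (blue). The dashed line is the median of 21178 promoters, 0.34, which the interval of each red point includes.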

How the data were processed

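Poly(A) RNA was sequenced by the authors from 8 samples and ChIP DNA from 2. Per the study's methods, cutadapt removed adapters, TopHat aligned the reads to NCBIM37 with up to 10 locations each, and HTSeq counted them on genes. The authors deposited CPM values after TMM normalization in edgeR, in 2 tables. The deposited ChIP files give 1 line per read, aligned with Bowtie2, with its mapping quality score, of which the lowest was 5 for GFP and 6 for Pontin.

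Dividing each CPM by its library's step gave whole reads for 100% of values (within 0.01 read), so reads were recovered for intervals and for edgeR 4.0.16 and DESeq2 1.42.0. Genes above 1 CPM in at least 1 library compared were kept and 1 was added before log2. linc1253 knockdown was tested with limma 3.58.1 (trend, Benjamini-Hochberg). Levels per kilobase used the union of exons of the NCBIM37 annotation, which gave a symbol for 22337 of 22713 identifiers. Ratio intervals are exact (binomial) at 95%, and a count of 0 allows up to 3 reads. As the reads carry no molecular identifiers, intervals describe the counting of reads and nothing else. Promoter sequences of 8 of the 10 genes were matched by symbol in RefSeq and located in NCBIM37 by exact match. R 4.3.3, Python 3.11.15, pandas 2.3.3 and scipy 1.17.1 were used, and scripts were tested on simulated data.

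By the rule for named genes, the text names all 10 genes, Ruvbl1 and Pou5f1 as checks, the 5 genes most like Igf2 and, of each other list, at most 4 genes per comparison with the largest absolute differences among those with a mean of at least 5 CPM. Other genes named beside the members, from marker lists or in the library differences were chosen after their values were seen. The 10 genes and all lists were chosen with earlier results of these data known. Alternatives were pseudocounts of 0.5 and 3, no filter or one at 5 CPM, rescaling, a limit of 1, other tools, a replicate block, leaving out each shRNA library, and other ChIP windows, scaling and duplicate handling.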

Additional observations from a re-analysis of the deposited data

Results flagged for a closer look

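Peg3 was picked out because its 2 OHT time points went opposite ways against the same WT library. The difference in log2(CPM + 1) was 0.57 at OHT 3D and -0.76 at OHT 4D, and the counting intervals of both ratios lay on opposite sides of 1. The difference between the time points was not tested, since each has 1 library. In ZHBTc4 cells the libraries of the same group differed in Peg3 by 6.09-fold and 3.59-fold. The OHT 3D and OHT 4D libraries had 663 and 264 CPM.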

How the results depend on the processing

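The calls of the 10 genes kept within 1.5 times their number for most settings. A log2 limit of 1 in place of 0.58 left 1 call at OHT 3D, 2 at OHT 4D, 4 at Tc 2D against the ZHBTc4 control and 4 between lines. Leaving out each control library gave 5 to 8 calls at Tc 2D against the ZHBTc4 control and 5 to 7 between lines. The fewest were found at Tc 2D without control library 2 (5) and between lines without control library 1 (5). The shares of all genes called under these settings are not given, so that these counts are not read as a result about the members. Peg3 at Tc 2D against the ZHBTc4 control turned from 0.62 to -0.67 without control library 1 and was 1.91 without control library 2. After linc1253 knockdown, DESeq2 called 1 of the 10 genes (Cdkn1c), against 22 higher and 28 lower of 13407 genes. It gave no adjusted p for 2860 of the 13407, Dlk1 and Plagl1 among them. Unadjusted limma p with the log2 limit of the study also called 1 (Cdkn1c), against 303 higher and 287 lower of 13407 genes. The replicate number as a block in limma called 2, Cdkn1c (adjusted p = 6.64e-08) and Peg10 (0.0353), and moved the calls over all genes from 0 to 933 higher and 1027 lower. The deviations of same-numbered libraries correlated at r = 0.673 over 13407 genes, but the labels give only a number and 2 pairs do not settle a pairing. The ChIP ratio of the members, 0.29, was -0.048 when scaled by the median ratio over promoters, which shifts all promoters alike and sets their median to 0. It was 0.17 (interval -0.05 to 0.39) with 1 read per position and strand, and 0.69 for windows of 1 kb either side of the start, where the median of all promoters was 0.53. Depth limits Dlk1, with 26 reads in each control library, and single ChIP starts, with 9 to 30 GFP reads.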

Other observations

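Imprinted genes away from the 10 loci moved both ways at Tc 2D. Of 23 tested against WT, 4 were higher and 11 lower, with a median log2 difference of -0.47, while 23.9% of all genes were higher and 25.8% lower. Against the ZHBTc4 control 2 of 23 were higher and 9 lower, with a median of -0.38, while 18.3% of all genes were higher and 30.7% lower. Among those with a mean of at least 5 CPM, the largest difference from that control was that of Sfmbt2, with 37.9 CPM in WT, 63.3 at Tc 2D and 9.13 and 15.9 in the controls. Slc38a4 had 279 CPM in WT, 501 at Tc 2D and 356 and 346 in the controls. Nnat, a proteolipid gene expressed from the father's allele, had 24.99 CPM in WT and 5.603 at Tc 2D, and 9.04 and 17.6 in the ZHBTc4 controls. Ndn, a gene of the Prader-Willi region, had 15.6 CPM in WT, 3.81 at Tc 2D and 13.9 and 11.8 in the controls. At OHT 4D, 4 of 23 were lower and 0 higher (8.89% and 6.48% of all genes), namely Atp10a, Ube3a, Herc3 and Sfmbt2 with log2 differences between -0.82 and -0.59.

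Of 12 genes that set, guard or remove methylation marks, among them Tet1 and Tet2, which oxidise methylated cytosine, 1 was higher and 7 lower at Tc 2D against WT, where 23.9% of all genes were higher and 25.8% lower. Against the ZHBTc4 control 0 were higher and 9 lower, where 18.3% of all genes were higher and 30.7% lower and the median of all genes was -0.17. Dnmt3l, a cofactor of the methyltransferases that set imprints in germ cells, had 257 CPM in WT, 26.6 at Tc 2D and 324 and 397 in the controls. Zfp57, a zinc finger protein that protects imprints, had 171 CPM in WT, 281 and 274 at OHT 3D and OHT 4D, 76.1 at Tc 2D and 447 and 439 in the controls.

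After linc1253 knockdown, Slc38a4, an amino acid transporter gene expressed from the father's allele, had 356 and 346 CPM with the control shRNA and 192 and 215 CPM with the linc1253 shRNA. Its log2 difference was -0.79 with an SE of 0.09, and its limma p of 0.000119 became 0.406 after adjustment over all genes.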
